A study of Mus musculus with 16 samples.

Results

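The genes described here are 10 that build or steer the cytoskeleton of axons, measured in whole cochleae of DBA/2J mice. They are the intermediate filament genes Nefl, Nefm, Nefh, Ina and Prph, the microtubule genes Tubb3, Stmn2, Stmn3 and Map2, and the growth cone gene Gap43. A gene entered by its name, through every probe whose only symbol in the array annotation is that gene, which gave 21 probes for 10 genes out of 45037 probes and 18193 genes. Of the 10 genes, 8 passed the filter on low signals (14 probes), and Prph and Gap43 did not.

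Total RNA of 16 mice, from the whole cochlea of the left ear, was hybridized to an Affymetrix mouse genome array. The methods give the injected mice as male and state no sex for those taken at 4 weeks. DBA/2J is an inbred strain used as a model of progressive hearing loss. The 6 M+V-treated mice were 12 weeks old and had received L-methionine (MET, 500 mg/kg) and valproic acid (VPA, 300 mg/kg), injected under the skin once a day for 8 weeks in 0.1 M sodium bicarbonate. The 5 control mice were 12 weeks old and had received the bicarbonate vehicle for the same 8 weeks. The remaining 5 mice were 4 weeks old, the age at which the injections of the other groups began. MET is a donor of methyl groups and VPA inhibits histone deacetylases. M+V against control therefore compares treatments at 1 age, whereas in control against 4 weeks age and the vehicle injections cannot be told apart. M+V against 4 weeks holds age, injections and the drugs together.

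In the cochlea, axons belong to the spiral ganglion neurons, which carry signals from the hair cells to the brainstem, and to the efferent and autonomic fibres that enter with them. Neurofilaments are polymers of light, medium and heavy subunits (Nefl, Nefm, Nefh), joined in the central nervous system by alpha-internexin (Ina) and in peripheral neurons by peripherin (Prph), and they set the calibre of large axons. Microtubules of neurons hold the neuronal tubulin Tubb3, are bound along dendrites by Map2, and are made less stable by stathmins such as Stmn2 and Stmn3. In a whole cochlea, fewer axons and less RNA per neuron cannot be told apart.

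All values are log2 signals that the authors scaled so that every array has the same distribution, with a median of 6.90 in each array. A probe was tested where at least 1 group had no array with a signal under that median. The cochlear genes Coch and Otos were bright in all arrays (log2 signal of at least 14.8 for Coch and at least 13.8 for Otos). The hair cell genes Slc26a5 and Pou4f3 lay below the median in all 16 arrays (highest values 5.66 for Slc26a5 and 5.66 for Pou4f3), while Myo6 and Otof lay above it in all. The arrays fell into 8 with a high and 8 with a low signal of bioB, a bacterial transcript added to each sample as a hybridization control (8.91 to 9.62 and 5.73 to 6.08 on the log2 scale). The high level was found in M+V replicates 1 and 2, control replicate 1 and all 5 arrays at 4 weeks. No array at 4 weeks had low bioB, so M+V against 4 weeks could be compared within a level only for M+V replicates 1 and 2.

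RefSeq promoter entries (GRCm38.p6, 250 bases before and 50 after the annotated start) were held for 5 of the 10 genes, namely Prph, Ina, Tubb3, Stmn3 and Map2. Those of Prph, Ina and Tubb3 are shown because Ina and Tubb3 are genes that followed the shared level described below, while Prph is the filament gene that did not. Capitals mark matches to any of 3 motifs, each searched on both strands. The TATA box was searched as TATAAA. The GC box, bound by Sp1 family factors, was searched as GGGCGG and stands in capitals as its reverse complement where it lies on the minus strand. The CCAAT box was searched in the same way. These motifs were chosen with the array values known, and they do not overlap each other in the 3 sequences.
Prph, chr15:99054924-99055223, plus strand: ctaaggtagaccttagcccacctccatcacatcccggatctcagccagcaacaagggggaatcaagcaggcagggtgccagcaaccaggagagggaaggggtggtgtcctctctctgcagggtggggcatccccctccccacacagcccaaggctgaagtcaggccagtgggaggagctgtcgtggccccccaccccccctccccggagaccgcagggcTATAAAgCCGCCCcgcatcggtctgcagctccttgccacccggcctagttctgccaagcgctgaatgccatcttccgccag
Ina, chr19:47014431-47014730, plus strand: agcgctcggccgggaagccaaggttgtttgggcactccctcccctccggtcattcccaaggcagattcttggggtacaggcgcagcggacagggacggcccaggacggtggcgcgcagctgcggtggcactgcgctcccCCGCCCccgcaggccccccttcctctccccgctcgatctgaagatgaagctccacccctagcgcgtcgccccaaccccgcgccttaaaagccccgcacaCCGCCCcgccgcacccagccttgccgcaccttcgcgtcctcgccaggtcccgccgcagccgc
Tubb3, chr8:123411303-123411602, plus strand: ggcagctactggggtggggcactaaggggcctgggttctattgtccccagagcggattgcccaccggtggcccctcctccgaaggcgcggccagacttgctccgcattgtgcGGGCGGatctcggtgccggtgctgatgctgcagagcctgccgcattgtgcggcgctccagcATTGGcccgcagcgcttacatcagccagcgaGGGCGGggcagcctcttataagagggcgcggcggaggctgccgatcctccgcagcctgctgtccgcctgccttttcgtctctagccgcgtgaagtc
The Prph promoter held the 1 TATAAA found in the 5 sequences, with its first base at position -31 relative to the start, a motif that 13.6% of 32851 mouse promoters of this length hold on either strand. It also held 1 GGGCGG, at -24. The Ina promoter held 2 GGGCGG, at -111 and -12, and the Tubb3 promoter held 2, at -138 and -46, with 1 CCAAT at -77. GGGCGG was present in 35.7% and CCAAT in 37.4% of all promoters. The Map2 promoter held 5 GGGCGG and none of the others, and no motif was found in that of Stmn3. These matches describe the letters in the windows and were not tested for function.

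Across the comparisons, 0 of the 8 axon genes that passed the filter changed at an adjusted p under 0.05 in limma. Between M+V-treated and control cochleae all 8 had a lower mean after M+V, with a median log2 difference of -0.34 against 0.02 over all 11457 genes tested, of which 45.1% were below 0. No gene on the array reached the adjusted threshold in this comparison (0% of genes called), 8.82% had an unadjusted p under 0.05, and the methods' t-test likewise gave 0 genes. The lowest adjusted p among the 8 was 0.480 (Ina), and 2 of the 8, Ina and Map2, had an unadjusted p under 0.05. By the methods' t-test 0 of the 8 did, against 6.47% of all genes. Of the 8, 1 gene (Ina) was past the cutoffs of the study's methods, a fold over 1.5 with an unadjusted p under 0.05, against 1.19% of all genes.

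Between M+V and 4 weeks, all 8 again had lower means after M+V, with a median of -0.23 against 0.03 over all genes (45% below 0). The adjusted p passed for 0 of the 8, against 4.93% of all genes, and the study's cutoffs for 0 of the 8, against 3.88%. The unadjusted p in limma was under 0.05 for 1 of the 8 (Nefl), against 22.1% of all genes. By the methods' t-test it was under 0.05 for 0 of the 8, against 19.3%. Between control and 4 weeks 4 genes were lower and 4 higher in control, with a median of 0.04 against 0.01 over all genes (48% below 0). Here 0 of the 8 passed the adjusted p (1.45% of all genes did) and 0 passed the study's cutoffs (2.34% of all genes). In limma 0 had an unadjusted p under 0.05, against 13.9% of all genes. By the methods' t-test 1 did (Ina), against 17.3%. Pairs of these comparisons share a group of arrays, so their values are given side by side and not as support for one another.

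**Figure D1:**
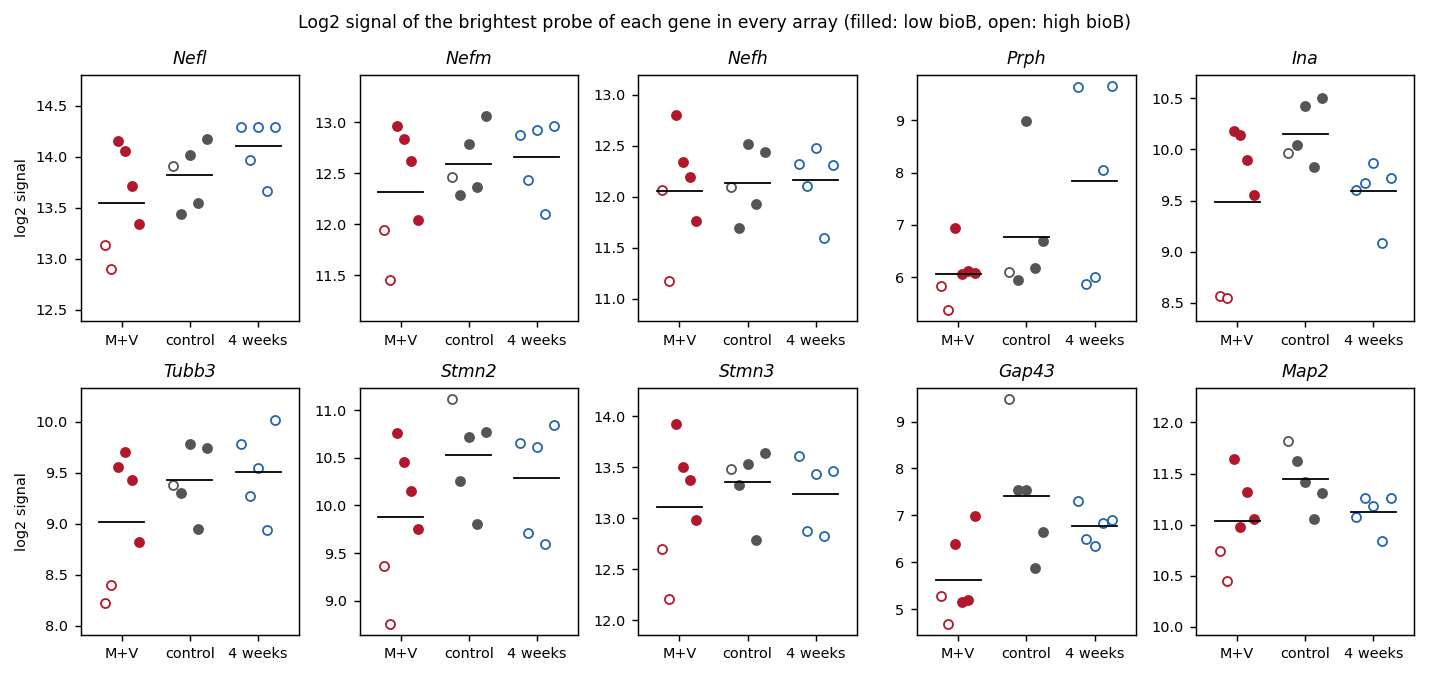
Log2 signal (y axis) of the brightest probe of each of the 10 genes in the 6 M+V, 5 control and 5 4-week arrays (x axis); each point is an array, open where bioB was high and filled where it was low, and the line is the group mean. The 2 open M+V points, replicates 1 and 2, lie below all other points for Nefl, Nefm, Ina, Tubb3, Stmn2, Stmn3 and Map2.

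Among the neurofilament subunits, Nefl (light chain) had M+V values with a lowest of 12.90, a median of 13.53 and a highest of 14.16. Control values were 13.91, 13.44, 14.02, 13.55 and 14.17, and those at 4 weeks 14.29, 13.97, 14.29, 13.66 and 14.29. The groups overlapped, and M+V replicates 1 and 2 (13.13 and 12.90) were the lowest of all arrays. The log2 difference between M+V and control was -0.27 (SE 0.217, limma adjusted p = 0.704), and that between M+V and 4 weeks was -0.55 (SE 0.217, adjusted p = 0.145). A second, dimmer probe of Nefl gave -0.17 for M+V against 4 weeks. For control against 4 weeks the brighter probe gave -0.28 (SE 0.227, adjusted p = 0.634) and the second 0.17.

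Nefm (medium chain) ran between 11.46 and 12.97 after M+V, with a median of 12.33. It was 12.46, 12.28, 12.79, 12.36 and 13.06 in control cochleae, and 12.88, 12.43, 12.93, 12.10 and 12.96 at 4 weeks. Nefh (heavy chain) ran between 11.17 and 12.80 after M+V (median 12.13), against 11.69 to 12.51 in control cochleae and 11.59 to 12.47 at 4 weeks. The ranges overlapped for both genes. Differences between M+V and control were -0.28 for Nefm (SE 0.252, adjusted p = 0.737) and -0.07 for Nefh (SE 0.240, adjusted p = 0.939), and the other comparisons ran from -0.34 to -0.07 for Nefm and from -0.10 to -0.03 for Nefh.

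Ina (alpha-internexin) was the filament gene with the largest M+V against control difference among those tested. It had a lowest value of 8.55, a median of 9.73 and a highest of 10.18 after M+V, against 9.96, 10.04, 10.43, 9.83 and 10.50 in control cochleae. At 4 weeks it was 9.60, 9.67, 9.87, 9.08 and 9.72. All control values but that of replicate 4 were above all 4-week values, while M+V values overlapped both groups. M+V against control gave -0.67 (SE 0.284, unadjusted p = 0.0308, adjusted p = 0.480), and an exact permutation test over the 11 arrays gave p = 0.104 (two-sided). The difference rested on M+V replicates 1 and 2 (8.57 and 8.55): without these arrays it was -0.21, and over the 8 arrays with low bioB it was -0.26 (exact permutation p = 0.286). The 3 probes of Ina gave -0.67 to -0.32.

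In control cochleae Ina was 0.56 higher than at 4 weeks (SE 0.297, adjusted p = 0.421), with 0.33 to 0.56 over its 3 probes. An exact permutation test of this gene alone gave p = 0.0159, one of 10 genes looked at. BioB was high in every 4-week array and low in 4 of 5 control arrays, and with the bioB level as a block, a fit that also draws on M+V replicates 1 and 2, the difference was -0.20 (adjusted p = 0.798). Control replicate 1, the only control array with high bioB, lay 0.37 above the 4-week mean, a value of a single array given without a test. The part of the bioB level in the Ina difference was not tested otherwise.

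Prph (peripherin) had arrays of a high and of a low level in the same group. Its brightest probe was at or above the array median in 1 of 6 cochleae after M+V, 1 of 5 control cochleae and 3 of 5 at 4 weeks. The M+V values ran between 5.37 and 6.93, with a median of 6.07. Control values were 6.11, 5.94, 8.98, 6.17 and 6.69, and the 4-week values were 9.64, 5.87, 6.00, 8.05 and 9.66. Thus 4 arrays were between 8.05 and 9.66 and the other 12 between 5.37 and 6.93, and the high arrays were 4 weeks replicates 1, 4 and 5 and control replicate 3. In a fit without the filter, the M+V minus control difference was -0.71 (SE 0.739, adjusted p = 0.855), and without control replicate 3 it was -0.16. Control minus 4 weeks was -1.07 (SE 0.772, adjusted p = 0.726). M+V minus 4 weeks was -1.78 (SE 0.739, unadjusted p = 0.0299, adjusted p = 0.293). This last value is past the study's cutoffs, which it lost without 4 weeks replicate 1, 4 or 5 or M+V replicate 2, in the methods' t-test on log2 values, with the glial covariate described below, and within high bioB, where it was -2.24 (differences of -2.27 to -1.33 over the arrays left out in turn). The other 3 Prph probes averaged 2.86 to 5.09, under the array median, and the mean over the 4 probes differed by 0.02 between M+V and 4 weeks.

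The genes with the highest correlation to Prph over the 16 arrays, among 13059 searched and picked after the values were seen, were led by Scn7a (r = 0.973), a sodium channel gene, P2rx3 (r = 0.927), an ATP receptor of sensory neurons, Cidea, Pde1c and Fxyd2 (r = 0.856). Scn7a was 9.65, 8.69 and 10.18 in 4 weeks replicates 1, 4 and 5 and 9.30 in control replicate 3, and P2rx3 was 8.65, 7.49, 9.06 and 7.85 in the same arrays. In the other 12 arrays Scn7a ran between 6.69 and 7.87 and P2rx3 between 5.08 and 6.22. Nefl was not set apart in these arrays (14.29, 13.66, 14.29 and 14.02). The cause of the split was not tested.

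**Figure D2:**
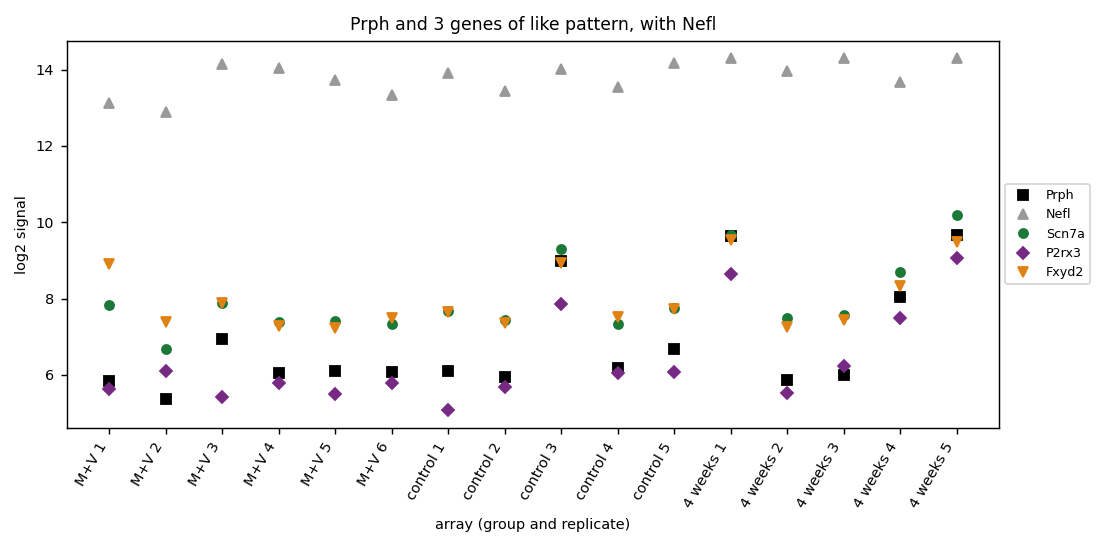
Log2 signal (y axis) of Prph, of Scn7a, P2rx3 and Fxyd2, whose pattern was like it, and of Nefl in each array (x axis: M+V replicates 1 to 6, control 1 to 5, 4 weeks 1 to 5). Prph, Scn7a and P2rx3 are all high in control replicate 3 and 4 weeks replicates 1, 4 and 5, whereas Fxyd2 is also high in M+V replicate 1 and Nefl has no such split.

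Of the microtubule genes, Tubb3 (neuronal beta-tubulin) had M+V values between 8.23 and 9.70 with a median of 9.12. Control values were 9.38, 9.30, 9.78, 8.95 and 9.74, and those at 4 weeks 9.78, 9.27, 9.54, 8.93 and 10.02. The groups overlapped, with M+V replicates 1 and 2 (8.23 and 8.40) below every other array. The M+V against control difference was -0.41 (SE 0.270, adjusted p = 0.639), that against 4 weeks -0.49 (adjusted p = 0.299) and that of control against 4 weeks -0.08.

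Stmn2, a stathmin of growing and regenerating axons, had M+V values between 8.76 and 10.76 with a median of 9.96. It was 11.12, 10.26, 10.72, 9.80 and 10.77 in control cochleae, and 10.66, 9.71, 10.61, 9.60 and 10.85 at 4 weeks. M+V against control gave -0.66 (SE 0.341, adjusted p = 0.548), close to the value of its second probe (-0.69), but the 2 groups overlapped and the difference was -0.11 over the arrays with low bioB. Stmn3, its relative, ran between 12.21 and 13.93 after M+V, 12.78 and 13.64 in control cochleae, and 12.82 and 13.61 at 4 weeks. Its M+V against control difference was -0.24 (SE 0.258, adjusted p = 0.784), and it turned to 0.13 over the arrays with low bioB.

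Map2, the dendritic microtubule protein, had M+V values between 10.44 and 11.64 with a median of 11.02, against 11.82, 11.62, 11.42, 11.05 and 11.31 in control cochleae. At 4 weeks it was 11.08, 11.26, 11.18, 10.84 and 11.26, so that the groups overlapped. M+V against control gave -0.41 (SE 0.182, unadjusted p = 0.0371, adjusted p = 0.487; exact permutation p = 0.106), and -0.10 over the arrays with low bioB (exact permutation p = 0.629). The second probe that passed the filter gave -0.46. Control against 4 weeks gave 0.32 (adjusted p = 0.488).

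Gap43, a membrane-bound protein of growth cones and presynaptic endings, was the gene with the largest M+V against control difference of the 10. It is also among the genes that the study's authors listed from these same arrays, so its direction is not independent evidence. Its 1 probe was dim, at or above the array median in 1 of 6 M+V, 3 of 5 control and 2 of 5 4-week arrays. The M+V values were 5.29, 4.69, 6.40, 5.15, 5.19 and 6.98, against 9.48, 7.54, 7.55, 5.87 and 6.65 in control cochleae and 7.31, 6.49, 6.34, 6.84 and 6.90 at 4 weeks. Of the 6 M+V arrays, 4 were below all control and all 4-week arrays, and replicates 3 and 6 overlapped both groups.

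In the fit without the filter Gap43 differed by -1.80 between M+V and control on the log2 scale (SE 0.546, unadjusted p = 0.00503), past the study's cutoffs but not past the adjusted p (0.682). An exact permutation test of this gene over the 11 arrays gave p = 0.0173 (two-sided), the lowest of the 10 genes. Adjusted over the 10 genes by the Benjamini-Hochberg method, this exact permutation p was 0.173. The difference stayed past the study's cutoffs when each of the 16 arrays was left out in turn, at -2.19 to -1.29, the smallest without control replicate 1. Without M+V replicates 1 and 2 it was -1.49 (unadjusted p = 0.0313 in limma). Over the arrays with low bioB it was -0.97, with an exact permutation p of 0.143 where the smallest possible with 4 arrays against 4 is 0.0286. Against 4 weeks, the M+V value was -1.16 (SE 0.546, adjusted p = 0.359), with an exact permutation p of 0.0346 not adjusted over the genes. Control against 4 weeks was 0.64 (adjusted p = 0.790), or 0.13 without control replicate 1. Within high bioB M+V against 4 weeks was -1.79 (adjusted p = 0.107), and without M+V replicates 1 and 2 it was -0.85.

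Gap43 had a correlation of 0.774 over the 16 arrays with the mean of the 9 oligodendrocyte genes tested and of 0.402 with that of the Schwann cell genes. Ermn, an oligodendrocyte gene, differed by -1.21 between M+V and control (limma adjusted p = 0.448) and was at its highest, 10.54, in control replicate 1. Ermn and Mobp (-0.88, adjusted p = 0.480) were the 2 of the 9 list genes past the study's cutoffs, against 1.19% of all genes in either direction. Of the 9, 8 had lower means after M+V (median -0.28), Sox10 the least (-0.09), and Cldn11 was higher (0.14). A fit with the mean of the oligodendrocyte and astrocyte lists as a covariate gave -1.13 for Gap43 (unadjusted p = 0.0253 in limma). The part of the genes of these lists in the Gap43 difference was not tested otherwise.

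**Figure D3:**
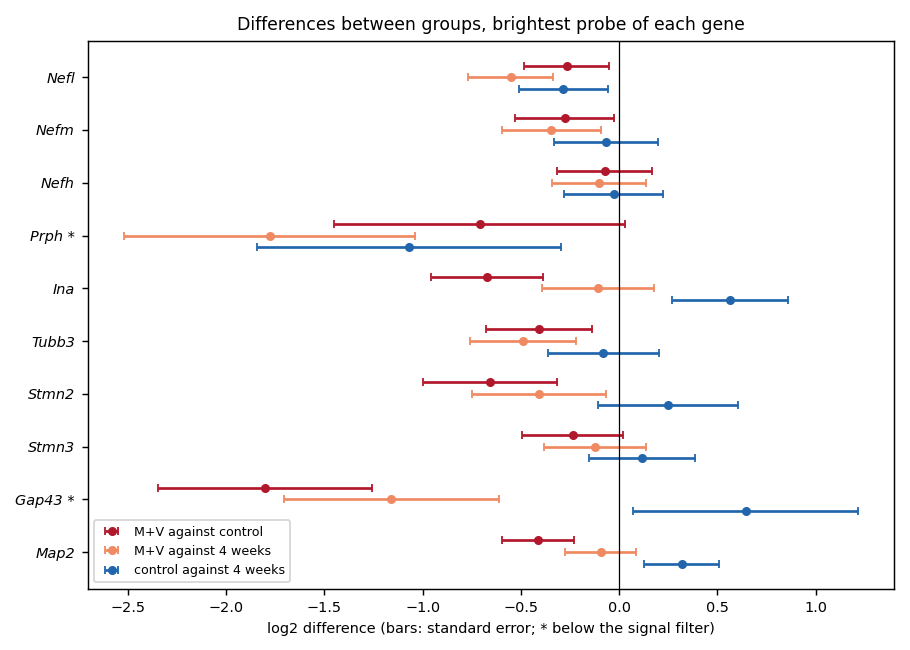
Log2 difference (x axis, bars are the standard error) of the brightest probe of each of the 10 genes (y axis) for the 3 comparisons named in the legend, with a star at the genes below the signal filter. All M+V differences lie left of 0, with Gap43 (-1.80) furthest left for M+V against control and Prph (-1.78) for M+V against 4 weeks.

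The 8 tested genes went up and down together from array to array. Over the 16 arrays the correlation between any 2 of them had a median of 0.816 over 28 pairs (0.527 to 0.944), and of 0.882 once the group means were taken out. Prph and Gap43 followed the others less closely, with medians of 0.414 and 0.386 over 9 pairs each. The arrays share their scaling, so these correlations are a description. The mean of the 8 genes, each centred over the arrays, was lowest in M+V replicates 2 and 1 (-1.02 and -0.67), then in 4 weeks replicate 4 (-0.43) and M+V replicate 6 (-0.34), and highest in M+V replicate 3 (0.49). The M+V group thus held the lowest and the highest cochlea of the series, and its SD of 0.577 compared with 0.285 in control cochleae and 0.332 at 4 weeks.

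M+V replicates 1 and 2 lay below all 14 other arrays for 7 of the 8 genes, the exception being Nefh. The same held for 6.06% of all genes tested. Both arrays have high bioB. The log2 signal of the 3' probe of Gapdh minus that of its 5' probe, a check on RNA quality, was 0.19 and 0.16 in them. It was 0.19 in control replicate 1, 0.0029 to 0.069 at 4 weeks and -0.17 to 0.044 in the arrays with low bioB. Over the 16 arrays its correlation with the mean of the 8 genes was -0.465. Its part in the axon gene values was not tested beyond the fits with it as the Gapdh covariate below. Among the arrays with low bioB, 4 M+V and 4 control, the differences of the 8 genes ran from -0.26 (Ina) to 0.14 (Nefh). Among the 8 arrays with high bioB, 3 of the 8 genes passed the adjusted p for M+V (2 arrays) against 4 weeks (5 arrays), against 4.85% of all genes: Nefl at -1.09 (adjusted p = 0.0259), Ina at -1.03 (adjusted p = 0.0306) and Tubb3 at -1.20 (adjusted p = 0.0450). This contrast rests on the 2 M+V arrays, and no 4-week array has low bioB, so the other 4 M+V arrays have no counterpart in it.

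Markers of other cells moved with the axon genes to differing degrees. Each list carries the name of a cell type, but whether its genes are confined to that type in the cochlea was not tested. The mean of 6 synapse genes followed them most closely (r = 0.949 over the 16 arrays), followed by 7 spiral ganglion genes (r = 0.850), 6 Schwann cell genes (r = 0.799), 4 hair cell genes (r = 0.732), 9 oligodendrocyte genes (r = 0.666), 6 cerebellar and brainstem neuron genes (r = 0.642) and 7 astrocyte genes (r = 0.424). The 6 strial and supporting cell genes followed them least (r = 0.281). The oligodendrocyte mean was -0.78 and -0.73 in M+V replicates 1 and 2, the Schwann cell mean -0.68 and -1.16. The strial and supporting cell mean was -0.73 in M+V replicate 1, the lowest of the 16 arrays, but 0.22 in replicate 2. Of the oligodendrocyte list 8 of 9 genes were lower after M+V than in control (median -0.28), of the synapse list 5 of 6 (median -0.32), and of the Schwann cell list 6 of 6 (median -0.28). In the spiral ganglion and sensory neuron list it was 5 of 7 (median -0.08), and in the cerebellar and brainstem list 4 of 6 (median -0.27). The astrocyte list had 4 of 7 (median -0.11), the hair cell list 2 of 4 (median 0.01) and the strial list 1 of 6 (median 0.07). Their part in the axon gene values was not tested. The 5 genes most like the mean of the 10 axon genes, by correlation over the 16 arrays, were Wasf1 (r = 0.963), Cntn1 (r = 0.960), Erc2 (r = 0.944), Pfn2 (r = 0.943) and Kif5c (r = 0.940).

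**Figure D4:**
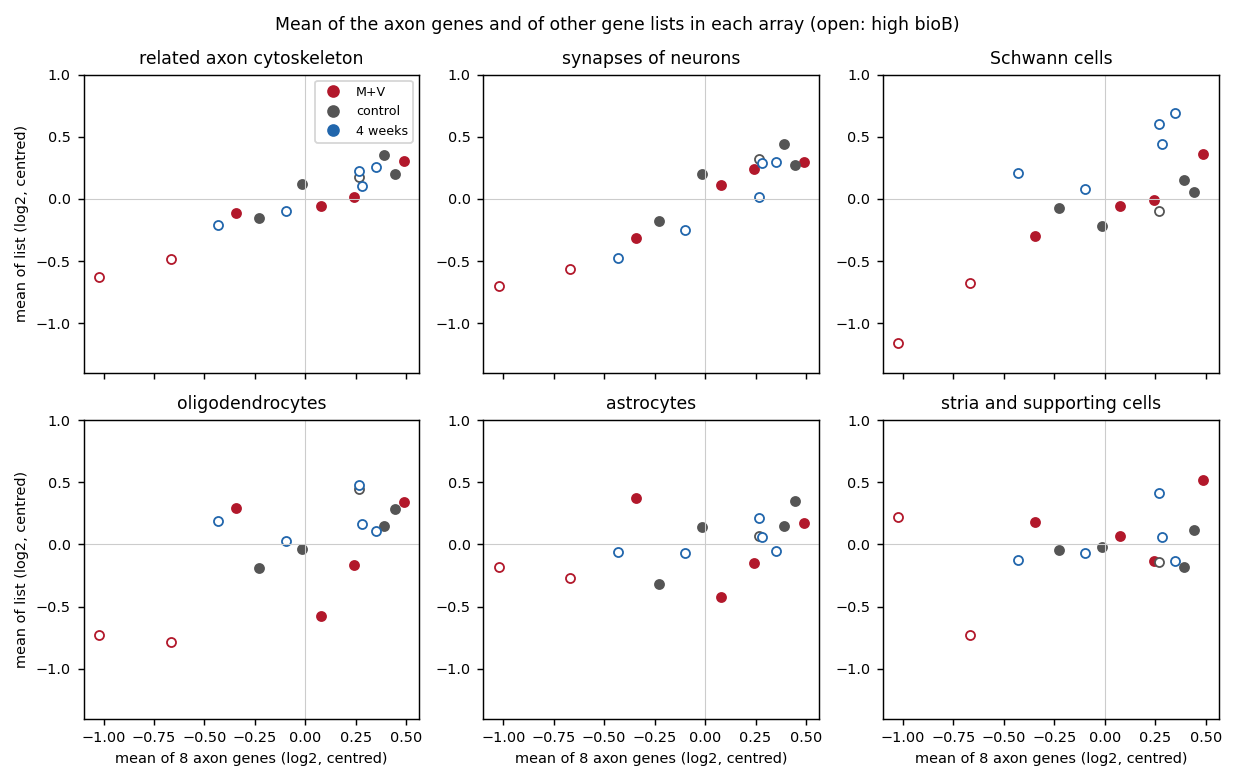
Mean centred log2 signal of 6 gene lists (y axis) against that of the 8 tested axon genes (x axis) in each array, coloured by group and open where bioB was high. The synapse list and the related axon list follow the axon genes (r = 0.949 and 0.958), the strial list does not follow them as closely (r = 0.281), and M+V replicates 1 and 2 are the 2 leftmost points.

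A list of 30 further axon cytoskeleton genes (tubulins, microtubule-binding proteins, kinesins, collapsin response mediators, ankyrins and spectrins) had 26 members that passed the filter. Between M+V and control 25 of the 26 had lower means after M+V (median -0.28) and 0 passed the adjusted p. The cutoffs of the study were passed downward by 3, namely Map1b, a microtubule-binding protein of growing axons that the study also listed from these arrays (-0.74, SE 0.261, adjusted p = 0.454), Kif5a, a kinesin heavy chain (-0.63, SE 0.286, adjusted p = 0.492), and the tubulin Tubb4a (-0.59, SE 0.226, adjusted p = 0.458), against 1.19% of all genes in either direction. Tubb4a passed the filter only through the control group, where it was at its highest, so its difference is no support, and without it 24 of 25 genes had lower means (median -0.27) and 2 passed the cutoffs. Without M+V replicates 1 and 2, 0 of the list passed them.

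Between M+V and 4 weeks 22 of the 26 had lower means (45% of all genes did), and 2 of the 26 fell past the adjusted p, against 4.93% of all genes. Dpysl3, a collapsin response mediator expressed in growing axons, was between 10.15 and 10.69 after M+V (median 10.57), against 11.27, 11.10, 11.25, 11.13 and 11.23 at 4 weeks. No M+V value reached a 4-week value, and the difference was -0.71 (SE 0.0958, adjusted p = 5.89e-04). Marcks, an actin-binding substrate of protein kinase C, was between 11.33 and 11.88 after M+V (median 11.70), against 12.08, 12.23, 12.13, 12.34 and 12.18 at 4 weeks (difference -0.55, SE 0.116, adjusted p = 0.0134). No M+V value of Marcks reached a 4-week value. The mean over all Marcks probes gave -0.28 (adjusted p = 0.186). Within high bioB the differences were -0.95 for Dpysl3 (adjusted p = 0.00729) and -0.73 for Marcks (adjusted p = 0.0235).

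In control against 4 weeks 19 of the 26 genes were higher and 7 lower in control (median 0.09), and 1 of the 26 passed the adjusted p, against 1.45% of all genes. Dpysl3 was 10.68, 10.68, 10.70, 10.49 and 10.51 in control cochleae, below every 4-week value, with a difference of -0.58 (SE 0.100, adjusted p = 0.00688). Among the arrays with high bioB, where 1 control array remains, it was -0.51, given without a test. M+V and control cochleae, both 12 weeks old, differed by -0.13 (adjusted p = 0.684), so that the lower level was found in both groups of injected mice.

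Set against the mean of the other 7 genes in the same array, Nefl, on its brighter probe, was the 1 gene of the 8 with a group that overlapped neither of the others, the 4-week group. The share of all genes set apart in this way was not counted, so 1 of 8 has no background beside it. It was at -0.19 to 0.13 after M+V and -0.41 to -0.03 in control cochleae, against 0.16 to 0.33 at 4 weeks. Its second probe did not set the 4-week group apart, with -0.24 to 0.29 after M+V, -0.14 to 0.06 in control cochleae and -0.24 to 0.08 at 4 weeks. Ina was at -0.04 ± 0.292 after M+V (SD, n = 6), 0.29 ± 0.183 in control cochleae (n = 5) and -0.24 ± 0.200 at 4 weeks (n = 5), and these ranges overlapped. Among the other 6 genes Nefh had the largest difference between group means, 0.34 for M+V against control, and all ranges overlapped.

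**Figure D5:**
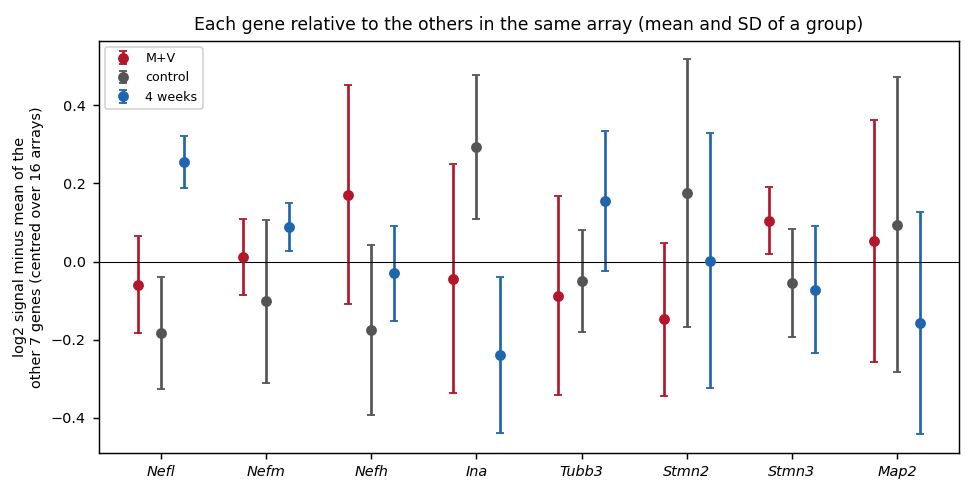
Log2 signal of each of the 8 tested genes minus the mean of the other 7 in the same array, centred over the 16 arrays (y axis), by gene (x axis) and group (M+V, control, 4 weeks); points are group means and bars the SD. Nefl at 4 weeks (0.25 ± 0.066) stands above both older groups on the brighter probe plotted here but not on the second probe, and Ina is highest in control cochleae.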

How the data were processed

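The arrays were scanned and their signals extracted by the authors with GCOS and the MAS5 algorithm (versions not given in the sources used here) and quantile-normalized. The deposited values are these signals on the log2 scale, and sorted values were identical across the 16 arrays, so a change in total RNA cannot be seen in them. Their number of arrays limits the precision. Signals under 1 were set to 1 (0.869% of all values, none of an axon gene), and 64 control probes were left out. Of the probes, 34958 have 1 symbol in the annotation, 932 have several and 9211 have none. A gene is given by its brightest probe, and by a fit without the filter where no probe passed it.

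Group means were fitted to all 16 arrays with limma 3.58.1 in R 4.3.3. P-values were two-sided and adjusted by the Benjamini-Hochberg method across the 21391 probes at or above the 50th percentile of the array in each array of 1 group or more. This filter stands in for the MAS5 present calls of the methods. The methods' t-test (Welch), exact permutation tests, other filters and scalings, array weights, covariates, the bioB level and the omission of each array were alternatives, and the omission of M+V replicates 1 and 2 together was added after seeing the data.

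The members, the gene lists and the tests were chosen with earlier results of these data known. Named are all 10 genes, the related axon cytoskeleton genes past a threshold and the 5 genes most like the mean of the 10. The genes most like Prph, Gap43 and Ina were picked after the values were seen. Of the marker lists some genes are named whether or not they passed a threshold, and not all those past the study's cutoffs are named. With group means taken out, arrays of different groups with the same replicate number had a median r of 0.0126 over 15 pairs, 6 of them over 0.1. The other pairs of arrays of different groups had a median of -0.019 over 70 pairs, 18 of them over 0.1. No pairing by number was applied in the main fit. The methods give 5 to 6 mice per group, and each array was taken as 1 mouse. Some genes of the marker lists were not analysed here.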

Additional observations from a re-analysis of the deposited data

Results flagged for a closer look

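Within groups of 5 or 6 arrays, 30 sets of values (10 genes in 3 groups) were looked at for an array far from the others, and chance picks out about 1 in 20 such groups. Prph in control replicate 3 was picked out, with a log2 signal of 8.98 against 6.69 in the next control array. The gap was 0.754 of the range of the group, above the critical value of 0.71 for 5 arrays. The cause was not tested. M+V replicates 1 and 2, which lie apart together, are not picked out by this rule, since it looks for a single array.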

How the results depend on the processing

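With M+V against control, 0 of the 8 axon genes passed the adjusted p in any of 33 alternatives, and with control against 4 weeks in none of 32. With M+V against 4 weeks, 3 passed among the arrays with high bioB alone and 0 in the other 31. For M+V against control Ina alone was past the study's cutoffs, and the count was 2 with no filter or a filter at the 25th percentile. It was 0 with either form of the methods' t-test, only the compared groups, array weights, the bioB level as a block or low bioB alone. It was also 0 with the oligodendrocyte and astrocyte covariate, the mean of a gene's probes or the omission of M+V replicates 1 and 2 (an alternative chosen after seeing the data). With high bioB alone the median was -1.05, and no count is given, since 2 M+V arrays stand against 1 control array. Leaving out each array gave 0 to 2 (0 without control replicate 3, for example). For M+V against 4 weeks the count was 1 with no filter or the Gapdh covariate, 2 at the 25th percentile, 4 with the bioB block (median -0.74), 6 with high bioB (median -0.99) and 0 to 2 with an array left out. For control against 4 weeks it was 1 with array weights or the bioB block (median -0.35), and no count is given for high bioB, where 1 control array remains. The share of all genes past the study's cutoffs was not counted in any alternative, so these counts have no background beside them.

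Differences between M+V and control turned sign with low bioB alone for Nefl (0.022), Nefh (0.14), Stmn3 (0.13) and Dpysl3 (0.015), with the covariate for Nefh (0.10) and Stmn3 (0.055), and without both M+V arrays for Nefm (0.028), Nefh (0.15) and Stmn3 (0.094). Those between M+V and 4 weeks did so in the linear t-test for Ina (0.017) and Kif5a (0.019), with array weights for Ina (0.14), Stmn3 (0.055), Kif5a (0.13) and Tubb4a (0.029), and with the covariate for Nefh (0.077), Ina (0.18), Stmn3 (0.18), Map2 (0.077), Kif5a (0.25) and Tubb4a (0.25). The mean of its probes gave Prph 0.020, and without both M+V arrays the values were 0.12 for Nefh, 0.36 for Ina, 0.21 for Stmn3, 0.13 for Map2, 0.33 for Kif5a and 0.12 for Tubb4a. Control against 4 weeks turned with array weights for Nefm (0.036), Nefh (0.036) and Tubb3 (0.023), with the bioB block for Ina (-0.20), Stmn2 (-0.14), Stmn3 (-0.34), Map1b (-0.28) and Kif5a (-0.10), and with the mean of its probes for Prph (0.25). With 1 array left out, M+V against control ran from -0.22 to 0.10 for Nefh. M+V against 4 weeks ran from -0.25 to 0.080 for Ina, -0.22 to 0.023 for Map2, -0.25 to 0.075 for Nefh, -0.29 to 0.057 for Stmn3, -0.23 to 0.14 for Kif5a and -0.24 to 0.053 for Tubb4a. Control against 4 weeks ran from -0.17 to 0.082 for Nefh, -0.21 to 0.0094 for Nefm and -0.22 to 0.046 for Tubb3. The cause of these changes was not tested.

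In the list of 30 related genes, the count past the study's cutoffs for M+V against control (3) was 1 in the linear t-test, with array weights or with the bioB block, 0 with low bioB, the covariate or without both M+V arrays, 9 with high bioB and 0 to 4 with an array left out. For M+V against 4 weeks the count past the adjusted p (2) was 1 with no filter, the log2 t-test or the mean of probes. The count past the cutoffs (1) was 3 with the replicate block, 8 with the bioB block, 12 with high bioB, 2 with the Gapdh covariate, 0 without both M+V arrays and 1 to 3 with an array left out. For control against 4 weeks the count past the adjusted p (1) was 2 with array weights, the covariate or without both M+V arrays. The count past the cutoffs (0) was 2 with array weights or the bioB block, 1 with the Gapdh covariate or the mean of probes, and 0 to 2 with an array left out. For M+V against control, the count with high bioB comes from 2 M+V arrays against 1 control array and is not a result. For control against 4 weeks, counts with high bioB, where 1 control array remains, are not given. The share of all genes past the study's cutoffs was not counted in any of these alternatives. The counts past the cutoffs therefore have no background beside them and are not a result about the list.

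With the replicate number as a block, 0 of the 8 axon genes passed the adjusted p and 1 the cutoffs for M+V against control (median -0.30), with -0.69 for Ina and -2.08 for Gap43. For M+V against 4 weeks Gap43 then passed the cutoffs (-1.43) and Prph (-1.78) did not. The share of all genes past the cutoffs was not counted with this block. The labels do not say whether the numbers pair the arrays. The number of arrays limits the precision, and Gap43 and Prph were under the array median in most arrays.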

Other observations

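The genes most like Gap43 and most like Ina over the 16 arrays were chosen after the values were seen and are given as a description. Gap43 followed Scn2a, a neuronal sodium channel gene (r = 0.918), Ermn, an oligodendrocyte gene (r = 0.907), Prrg1 (r = 0.899), Klhl13 (r = 0.898) and the GABA receptor gene Gabrb2 (r = 0.890). Of these, Ermn was 10.54, Scn2a 9.40 and Gabrb2 9.17 in control replicate 1, the array in which Gap43 was at its highest. Ina followed Chga, a gene of dense core vesicles (r = 0.967), Prkar1b (r = 0.958), Arhgef4 (r = 0.955), the kinesin gene Kif5a (r = 0.953) and the synaptic vesicle gene Vamp1 (r = 0.950).

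Myelin genes in M+V-treated and 4-week cochleae were compared by list. Of 6 Schwann cell genes 6 had lower means (median -0.59), and Pmp22, a protein of compact peripheral myelin, passed the adjusted p (difference -1.08, limma adjusted p = 0.0273), 1 of 6 against 4.93% of all genes. Of the 9 genes tested of the oligodendrocyte list 7 had lower means (median -0.60). Ugt8a, an enzyme of myelin lipid synthesis (-1.14, adjusted p = 0.0158), and Mal, a myelin proteolipid (-0.60, adjusted p = 0.0405), passed, 2 of 9 against 4.93% of all genes. Which myelinating cells these genes stand for in the cochlea was not tested. Of all genes 45% had lower means. The list means of M+V replicates 1 and 2 were -0.68 and -1.16 for Schwann cells and -0.78 and -0.73 for oligodendrocytes. Without these arrays, an alternative chosen after seeing the data, the medians were -0.40 and -0.34, Pmp22 was -0.64 (adjusted p = 0.0297) and Ugt8a -0.74 (adjusted p = 0.0161), and Mal at -0.40 did not pass (adjusted p = 0.109). Within high bioB the differences were -1.95 for Pmp22, -1.95 for Ugt8a and -0.99 for Mal. Between control and 4 weeks the medians were -0.42 for the Schwann cell list and 0.05 for the oligodendrocyte list, and 0 genes of either list passed in limma (Pmp22, Ugt8a and Mal had unadjusted p-values of 0.0228, 0.0170 and 0.0225). The mean of the Schwann cell list was -1.16 to 0.36 after M+V, -0.22 to 0.15 in control cochleae and 0.08 to 0.69 at 4 weeks.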
